A study of Mus musculus with 12 samples.

Results

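The 10 genes described here encode proteins of the neuronal cytoskeleton. Stmn2, Stmn3 and Stmn4 are stathmins, Dcx and Dclk1 belong to the doublecortin family, Mapt and Map2 are structural microtubule-associated proteins, Tubb3 is a beta tubulin, and Nefl and Nefm are neurofilament subunits. They were taken by their exact symbol in the array's annotation, which named 18193 genes in all, and 30 of the 45101 probe sets on the array carried 1 of these symbols. Each of the 10 was found. Tubb3, Stmn4 and Nefm had 1 probe set each, and the other 7 genes had several, of which the brightest over the 12 arrays gave the gene's main value.

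RNA came from granule cell progenitors of the mouse cerebellum at postnatal day 8, in 4 groups of 3 Affymetrix arrays. Wild type cells from the hemispheres and from the vermis were set against SmoM2 cells of the same regions. The SmoM2 mice carried Atoh1-CreER on 1 allele and R26LSL-SmoM2-YFP, an activated Smoothened fused to a yellow fluorescent protein that stays silent until Cre removes a stop cassette. They were given 200 µg of tamoxifen per g at postnatal day 2, so recombination was limited to cells that used the Atoh1 driver. All groups shared a mixed background (C57BL/6 and Swiss Webster), each array held a pool of 5 mice, and cells were separated on Percoll, a density gradient that enriches small granule cells without a sort for a marker. The sources used here do not say whether wild type mice received tamoxifen or carried Cre, or whether both regions of a numbered pool came from the same mice.

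Granule cell progenitors divide in the outer layer of the cerebellum in response to Sonic hedgehog, whose receptor complex releases Smoothened. On leaving the cycle they extend axons, migrate inward and become granule neurons, and their cytoskeleton is rebuilt on the way. Stathmins bind free tubulin and favour disassembly, doublecortin proteins brace microtubules in migrating neurons, tau and Map2 bind along axonal and dendritic microtubules, and neurofilaments fill and widen axons.

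Between genotypes the genes split into 3 groups. Stmn2, Stmn4, Dcx, Mapt, Tubb3 and Nefl were lower in SmoM2 cells, Dclk1 was higher, and Stmn3, Map2 and Nefm did not pass the test. The threshold was a limma p under 0.05 after Benjamini-Hochberg adjustment over all 18193 genes. In the hemisphere 6 of the 10 genes fell and 1 rose, where 14.8% of all genes passed (7.18% lower and 7.62% higher). In the vermis 6 fell and 1 rose, where 17.0% of all genes passed (9.46% lower and 7.56% higher). The same 6 genes fell and the same gene rose in both regions, beside 4.71% of all genes that fell and 5.27% that rose in both. The 10 genes were chosen with earlier results of these data known, so the shares beside their counts are a description. Their level lay at percentiles 61.4 to 98.6 among all genes, whereas the shares cover genes of every level. The median difference of the 10 genes, SmoM2 minus wild type, was -0.69 on the log2 scale in the hemisphere and -0.64 in the vermis, beside -0.05 and -0.06 over all genes. All values below are log2 expression values or differences between them, and a difference of 1 is a 2-fold change. In RNA from pooled cells, fewer cells of a type and less RNA per cell cannot be told apart.

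**Figure D1:**
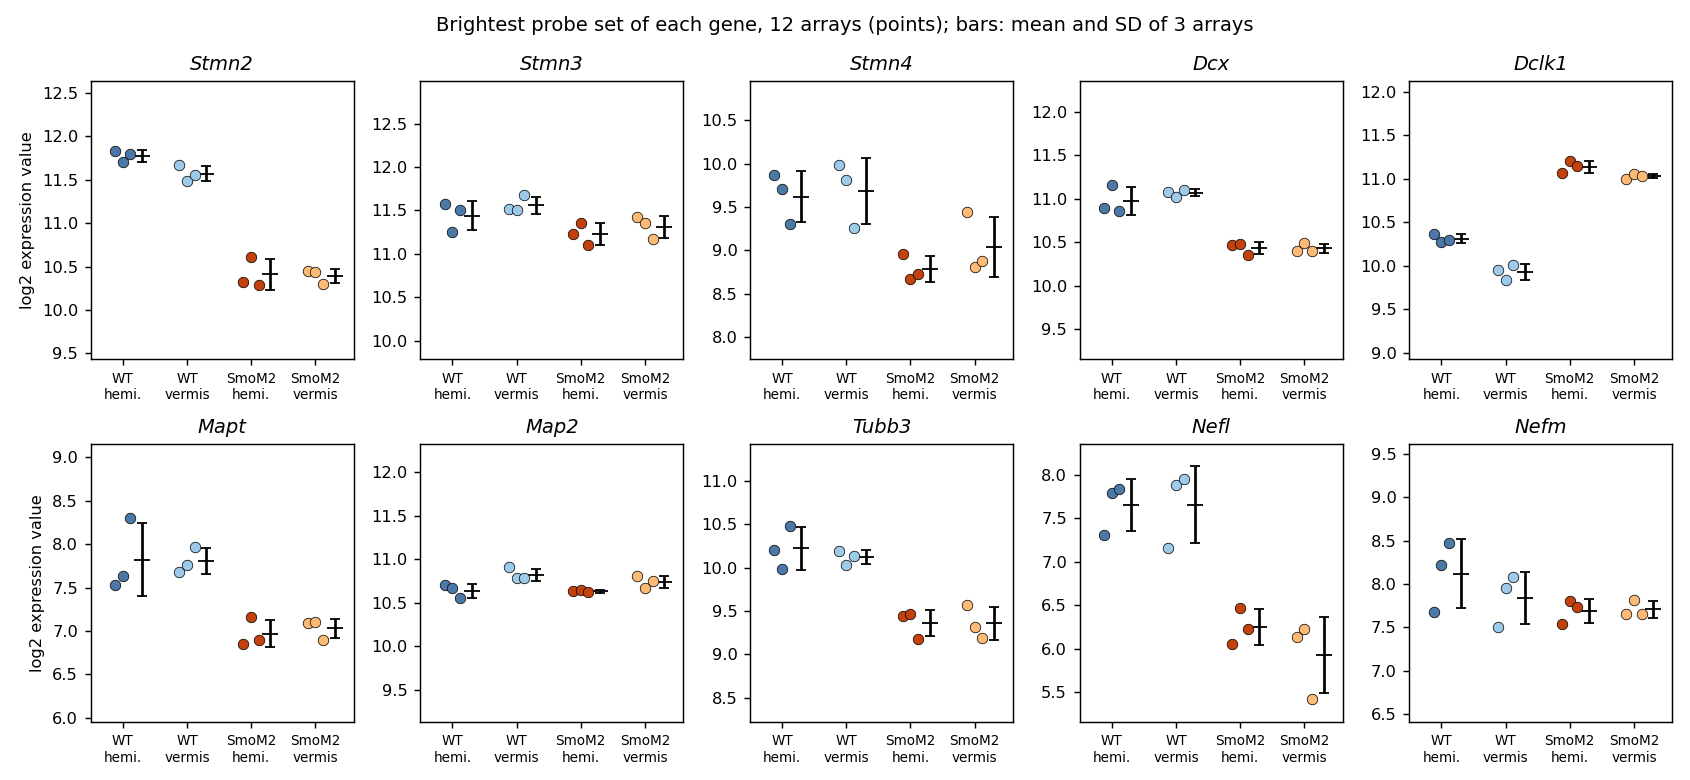
Log2 expression value of the brightest probe set of each of the 10 genes on the 12 arrays (vertical axis), by group: points are arrays, and bars are the mean and SD of 3 arrays. All 6 SmoM2 arrays lie below all 6 wild type arrays for Stmn2, Dcx, Mapt, Tubb3 and Nefl and above them for Dclk1, while over both regions the genotypes overlap for Stmn3, Stmn4, Map2 and Nefm.

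In the hemisphere 7 of the 10 genes had SmoM2 and wild type arrays that did not overlap, where 31.7% of all genes did. The number was also 7 in the vermis, where the share over all genes was 39.8%.

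RefSeq's table of promoters on GRCm38.p6 held 7 start sites of 5 of the genes (Map2, Stmn3, Dclk1, Tubb3 and Dcx). The 250 bases before 4 of these starts are shown. They are both starts of the gene that rose, which lie 219364 bases apart, and a start of each of 2 genes that fell. Dcx has another start, whose bases overlap those shown and are not printed. The printed bases read 5′ to 3′ along the gene, and capitals mark matches to the searched motifs.
Dclk1, upstream start, GRCm38.p6 chr3:55242114-55242363, plus strand: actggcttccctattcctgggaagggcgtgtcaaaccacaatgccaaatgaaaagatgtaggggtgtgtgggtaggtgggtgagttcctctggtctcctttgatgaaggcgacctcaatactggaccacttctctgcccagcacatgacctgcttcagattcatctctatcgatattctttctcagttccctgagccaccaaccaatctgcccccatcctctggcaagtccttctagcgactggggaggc
Dclk1, downstream start, GRCm38.p6 chr3:55461478-55461727, plus strand: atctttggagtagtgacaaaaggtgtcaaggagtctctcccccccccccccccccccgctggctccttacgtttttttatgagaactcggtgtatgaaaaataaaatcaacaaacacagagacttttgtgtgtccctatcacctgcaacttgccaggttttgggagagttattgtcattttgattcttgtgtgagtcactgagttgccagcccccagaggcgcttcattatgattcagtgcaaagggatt
Tubb3, GRCm38.p6 chr8:123411303-123411552, plus strand: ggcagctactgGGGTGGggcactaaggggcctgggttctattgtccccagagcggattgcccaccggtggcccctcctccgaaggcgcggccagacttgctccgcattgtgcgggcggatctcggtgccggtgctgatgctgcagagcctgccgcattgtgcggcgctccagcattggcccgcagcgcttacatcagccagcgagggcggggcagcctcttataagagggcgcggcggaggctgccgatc
Dcx, GRCm38.p6 chrX:143933125-143933374, minus strand: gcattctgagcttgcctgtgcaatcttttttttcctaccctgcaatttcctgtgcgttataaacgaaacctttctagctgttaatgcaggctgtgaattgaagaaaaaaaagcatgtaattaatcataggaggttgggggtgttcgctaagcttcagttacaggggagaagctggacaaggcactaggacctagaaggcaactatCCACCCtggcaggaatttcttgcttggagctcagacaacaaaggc

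Both strands of these windows were searched for a Gli motif (GACCACCCA), its shorter core (CCACCC, which the longer motif contains), a NeuroD E-box (CAGATG), an Atoh1 E-box (CAGCTG, its own reverse complement) and part of the RE1 element (TTCAGCACC). The Gli core was present in 3 of the 7 windows, and 28.1% of 32851 RefSeq windows of that length held it. It lay 45 bases before the Dcx start shown, 239 bases before the Tubb3 start on the opposite strand, and 230 and 206 bases before the Stmn3 start. The Stmn3 window also held CAGATG at 75 bases before its start, a motif found in 14.4% of all windows. The other 3 motifs were in none of the 7 windows, beside 0.225% of all windows for GACCACCCA, 13% for CAGCTG and 0.301% for TTCAGCACC. Neither Dclk1 window held any of the 5, and nor did the window of the Dcx start that is not shown (chrX:143933220-143933469). These matches are descriptions of the letters in each window.

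Stmn2, the growth cone stathmin also called SCG10, had the largest fall of the stathmins in both regions. On the wild type hemisphere arrays Stmn2 stood at 11.83, 11.70 and 11.79, and on the SmoM2 hemisphere arrays at 10.32, 10.61 and 10.29. In the vermis Stmn2 read 11.67, 11.49 and 11.55 in wild type and 10.45, 10.44 and 10.30 in SmoM2. Every SmoM2 array was lower than every wild type array, with a gap between the genotypes several times wider than the spread within a group. The difference for Stmn2 was -1.37 ± 0.11 (SE) in the hemisphere, a 2.58-fold fall (adjusted p = 1.06e-06), and -1.18 ± 0.11 in the vermis, a 2.26-fold fall (adjusted p = 4.92e-06). A second Stmn2 probe set fell by 1.42 in the hemisphere and by 1.30 in the vermis.

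Stmn4, the brain stathmin also called RB3, was lower in SmoM2 cells with a wider spread between arrays. Wild type hemisphere arrays gave Stmn4 values of 9.87, 9.71 and 9.30 and SmoM2 hemisphere arrays 8.96, 8.67 and 8.73, which did not overlap. In the vermis the values of Stmn4 were 9.98, 9.81 and 9.26 in wild type and 9.44, 8.81 and 8.88 in SmoM2, and the groups overlapped because the first SmoM2 array was above the third wild type array. Stmn4 fell by 0.84 ± 0.21 (SE) in the hemisphere (1.79-fold, adjusted p = 0.0143) and by 0.64 ± 0.21 in the vermis (1.56-fold, adjusted p = 0.0465). The hemisphere call for Stmn4 was lost without wild type hemisphere array 2 (adjusted p = 0.0531) or without SmoM2 hemisphere array 2 (0.0526) or 3 (0.0513). The vermis call for Stmn4 was lost without any of 8 arrays: wild type hemisphere array 2 (0.055), wild type vermis arrays 1 (0.133) and 2 (0.141), SmoM2 hemisphere arrays 1 (0.056), 2 (0.0588) and 3 (0.061), and SmoM2 vermis arrays 2 (0.17) and 3 (0.128).

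Stmn3, also called SCLIP, did not pass in either region on its brightest probe set. That set carries the suffix by which Affymetrix marks probes that may also match other transcripts. It read 11.58, 11.25 and 11.50 in wild type hemisphere and 11.23, 11.36 and 11.10 in SmoM2 hemisphere, which overlapped. In the vermis the Stmn3 values were 11.52, 11.50 and 11.68 in wild type and 11.42, 11.36 and 11.17 in SmoM2, which did not overlap. The difference for Stmn3 was -0.22 in the hemisphere (95% interval -0.47 to 0.03, adjusted p = 0.225) and -0.25 in the vermis (95% interval -0.50 to 0.00, adjusted p = 0.152). The second Stmn3 set, without that suffix, read 10.23, 10.07 and 10.37 in wild type hemisphere and 9.79, 9.88 and 9.69 in SmoM2 hemisphere. On it Stmn3 fell by 0.44 in the hemisphere (adjusted p = 0.0282 over all probe sets), a call lost without wild type hemisphere array 3, SmoM2 hemisphere array 1 or SmoM2 hemisphere array 3 (highest adjusted p 0.112, without the last). In the vermis the same Stmn3 set differed by -0.29 (adjusted p = 0.121). Stmn1, the stathmin of dividing cells and the only other family member, differed by -0.21 in the hemisphere (adjusted p = 0.105) and by -0.15 in the vermis (0.225). Thus 2 of the 4 stathmins fell in each region, and 1 did without the arrays on which the Stmn4 call rested.

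Family members were compared for the size of their SmoM2 response, averaged over both regions. The test was an exact two-sided permutation of genotype within each region (400 relabellings, smallest possible p 0.005), with Benjamini-Hochberg adjustment over 6 pairs of genes, and it was chosen after the values had been seen. Hemisphere and vermis arrays of the same genotype and number deviated together, and this test treats them as separate. Keeping them together leaves 20 relabellings and a smallest possible p of 0.1, so that no pair could then pass. In that form the exact p was 0.1 for 5 of the 6 pairs and 0.2 for Stmn3 and Stmn4. The response of Stmn2 minus that of Stmn3 was -1.04 (exact p = 0.005, adjusted p = 0.006), and minus that of Stmn4 it was -0.53 (exact p = 0.005, adjusted p = 0.006). The response of Stmn3 minus that of Stmn4 was 0.50 (exact p = 0.03, adjusted p = 0.03). This last difference between Stmn3 and Stmn4 missed the threshold without any of 7 arrays: wild type hemisphere arrays 1 and 2 (adjusted p = 0.05 each), wild type vermis arrays 1 (0.075) and 2 (0.07), SmoM2 hemisphere array 2 (0.06), and SmoM2 vermis arrays 2 (0.075) and 3 (0.055).

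Dcx and Dclk1, which share tubulin-binding doublecortin domains, moved in opposite directions. Dcx, whose loss in humans causes lissencephaly, read 10.89, 11.16 and 10.86 in wild type hemisphere and 10.47, 10.48 and 10.35 in SmoM2 hemisphere. In the vermis Dcx read 11.08, 11.02 and 11.10 in wild type and 10.40, 10.49 and 10.40 in SmoM2. All SmoM2 arrays were below all wild type arrays. Dcx fell by 0.54 ± 0.10 (SE) in the hemisphere (1.45-fold, adjusted p = 0.00251) and by 0.64 ± 0.10 in the vermis (1.56-fold, adjusted p = 0.000633).

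The 3 other Dcx probe sets were dimmer and did not pass in either region. The first differed by 0.01 in the hemisphere and by -0.61 in the vermis (adjusted p = 0.983 and 0.121 over all probe sets), and its arrays of a group lay far apart, from 8.01 to 8.72 in wild type hemisphere. The other Dcx sets differed by -0.42 and -0.38 in the hemisphere and by -0.46 and -0.28 in the vermis. With the mean of all 4 sets as its value, Dcx differed by -0.33 in the hemisphere (adjusted p = 0.062) and no longer passed there.

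Dclk1, a doublecortin-like protein with a kinase domain whose gene also gives kinase-only and doublecortin-only products, was the 1 gene of the 10 that rose. It read 10.36, 10.27 and 10.30 in wild type hemisphere and 11.07, 11.20 and 11.15 in SmoM2 hemisphere. In the vermis Dclk1 stood at 9.95, 9.84 and 10.01 in wild type and at 11.00, 11.05 and 11.03 in SmoM2. Every SmoM2 array was above every wild type array. Dclk1 rose by 0.83 ± 0.09 (SE) in the hemisphere (1.78-fold, adjusted p = 2.42e-05) and by 1.09 ± 0.09 in the vermis (2.13-fold, adjusted p = 1.85e-06). The response of Dcx minus that of Dclk1 was -1.55 (exact permutation p = 0.005, adjusted p = 0.006 over the 6 pairs, and exact p = 0.1, the smallest possible, with numbered arrays kept together).

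The 9 probe sets of Dclk1 did not all follow the brightest. The 4 brightest rose in both regions, by 0.83, 0.94, 0.84 and 1.04 in the hemisphere and by 1.09, 1.06, 1.08 and 1.14 in the vermis. The fifth Dclk1 set read 7.70, 7.85 and 7.94 in wild type hemisphere against 7.67, 7.47 and 7.70 in SmoM2 hemisphere, and 7.85, 7.95 and 8.20 in wild type vermis against 7.64, 7.52 and 7.56 in SmoM2 vermis. It was lower on every SmoM2 array of a region, by 0.22 in the hemisphere, where the difference did not pass (adjusted p = 0.244), and it fell by 0.43 in the vermis (adjusted p = 0.0312). That vermis call was lost without wild type vermis array 2 or 3 or any of the 3 SmoM2 vermis arrays (highest adjusted p 0.129). The brightest Dclk1 set minus this one came to 2.36 to 2.66 in wild type hemisphere and 1.81 to 2.10 in wild type vermis, and to 3.40 to 3.72 in SmoM2 hemisphere and 3.37 to 3.53 in SmoM2 vermis. Of the other 4 Dclk1 sets, 1 differed by 0.40 in the hemisphere (adjusted p = 0.155) and by 0.59 in the vermis (adjusted p = 0.0423, passing in 3 of 12 fits that each left out 1 array). The other 3 differed by -0.02 to -0.04 in the hemisphere and by -0.10 to -0.29 in the vermis without passing, and 2 of them lay near the arrays' lower quartile of 3.24 to 3.42. The sources used here do not say which Dclk1 transcripts each set reads.

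**Figure D2:**
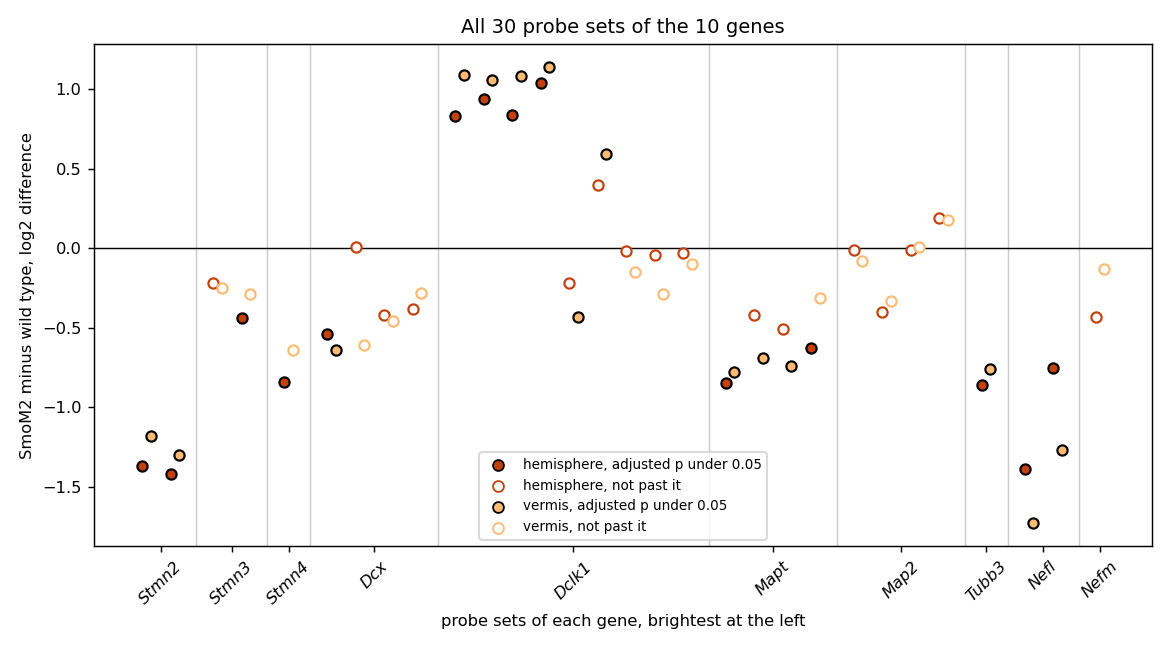
SmoM2 minus wild type log2 difference (vertical axis) of all 30 probe sets of the 10 genes, ordered within a gene from the brightest at the left, in the hemisphere and in the vermis; filled points passed at an adjusted p under 0.05 over all probe sets. Both Stmn2 sets and both Nefl sets are lower in both regions, whereas the 9 Dclk1 sets spread from -0.43 to 1.14 in the vermis.

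Over all 30 probe sets, 4 rose and 10 fell in the hemisphere, where 10.7% of 45037 probe sets passed (6.21% higher and 4.54% lower). In the vermis 5 rose and 10 fell, where 11.2% passed (5.68% higher and 5.49% lower). Each set that rose in either region belonged to Dclk1.

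Mapt, which encodes the axonal protein tau, fell in both regions. It read 7.53, 7.63 and 8.30 in wild type hemisphere and 6.85, 7.16 and 6.90 in SmoM2 hemisphere. In the vermis the Mapt values were 7.68, 7.76 and 7.97 in wild type and 7.09, 7.10 and 6.90 in SmoM2. No SmoM2 array reached a wild type array, and the third wild type hemisphere array stood above the others. Mapt fell by 0.85 ± 0.17 (SE) in the hemisphere (1.80-fold, adjusted p = 0.00448) and by 0.78 ± 0.17 in the vermis (1.71-fold, adjusted p = 0.00758). All 4 Mapt probe sets were lower in both regions, with differences from -0.85 to -0.42 in the hemisphere, where 2 passed, and from -0.78 to -0.31 in the vermis, where 3 passed. Adjusted over all probe sets, the second passing Mapt set in the hemisphere did so in 7 of 12 fits that each left out 1 array (lost without wild type hemisphere array 2 or 3, SmoM2 hemisphere array 1 or 2 or SmoM2 vermis array 2, highest adjusted p 0.145). In the vermis 1 of these sets lost its call without wild type vermis array 3 (0.0539), and another without that array (0.0825) or SmoM2 vermis array 2 or 3, so that 1 set passed without wild type vermis array 3.

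Map2, the dendritic relative of tau, gave no detectable difference on its brightest probe set. It read 10.70, 10.67 and 10.55 in wild type hemisphere and 10.63, 10.65 and 10.62 in SmoM2 hemisphere, and 10.91, 10.78 and 10.78 in wild type vermis against 10.81, 10.67 and 10.75 in SmoM2 vermis. Both genotypes overlapped in each region. The difference for Map2 was -0.01 (95% interval -0.21 to 0.19, adjusted p = 0.958) in the hemisphere and -0.08 (95% interval -0.27 to 0.12, adjusted p = 0.573) in the vermis. None of the 4 Map2 sets passed in either region, with differences from -0.40 to 0.19 in the hemisphere and from -0.33 to 0.18 in the vermis. The response of Mapt minus that of Map2 was -0.77 (exact permutation p = 0.005, adjusted p = 0.006 over the 6 pairs, and exact p = 0.1, the smallest possible, with numbered arrays kept together).

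Tubb3, the neuronal beta tubulin widely used to mark young neurons, fell in both regions. It read 10.20, 9.98 and 10.48 in wild type hemisphere and 9.44, 9.46 and 9.18 in SmoM2 hemisphere. The Tubb3 values in the vermis were 10.19, 10.03 and 10.13 in wild type and 9.57, 9.31 and 9.19 in SmoM2. The genotypes did not overlap. Tubb3 fell by 0.86 ± 0.14 (SE) in the hemisphere (1.82-fold, adjusted p = 0.0008) and by 0.76 ± 0.14 in the vermis (1.69-fold, adjusted p = 0.00196).

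Nefl, the light neurofilament subunit on which the other subunits assemble, had the largest fall of the 10 genes in the vermis on the brightest probe sets. On the second sets Nefl fell by 1.27 there and Stmn2 by 1.30, and this order was not tested. In the hemisphere the falls of Nefl and Stmn2 could not be ordered within their errors. Nefl read 7.31, 7.79 and 7.84 in wild type hemisphere and 6.06, 6.47 and 6.23 in SmoM2 hemisphere. In the vermis Nefl stood at 7.16, 7.88 and 7.95 in wild type and at 6.14, 6.23 and 5.42 in SmoM2. The third SmoM2 vermis array was the lowest of the 12, and no SmoM2 array overlapped a wild type array. Nefl fell by 1.39 ± 0.24 (SE) in the hemisphere (2.63-fold, adjusted p = 0.00122), and in the vermis it fell by 1.73 ± 0.24 (3.32-fold, adjusted p = 0.000183). The second Nefl set fell by 0.75 in the hemisphere (adjusted p = 0.0457 over all probe sets, passing in 6 of 12 fits that each left out 1 array) and by 1.27 in the vermis (adjusted p = 0.00235).

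Nefm, the medium subunit, did not pass in either region. It read 7.68, 8.22 and 8.47 in wild type hemisphere and 7.54, 7.81 and 7.73 in SmoM2 hemisphere, and 7.51, 7.95 and 8.08 in wild type vermis against 7.65, 7.82 and 7.66 in SmoM2 vermis. The genotypes overlapped in both regions, and the wild type arrays were more spread than the SmoM2 arrays. The difference for Nefm was -0.43 (95% interval -0.82 to -0.04, adjusted p = 0.125) in the hemisphere and -0.13 (95% interval -0.53 to 0.26, adjusted p = 0.631) in the vermis. Without wild type hemisphere array 1 Nefm passed in the hemisphere, at -0.65 (adjusted p = 0.011). Over 22 alternative fits its hemisphere difference ran from -0.65 to -0.26, with an adjusted p of up to 0.395, and passed in 2. Without wild type hemisphere array 3 the adjusted p of Nefm over all probe sets was 0.45. The response of Nefl minus that of Nefm was -1.28 (exact permutation p = 0.005, adjusted p = 0.006 over the 6 pairs, and exact p = 0.1, the smallest possible, with numbered arrays kept together).

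**Figure D3:**
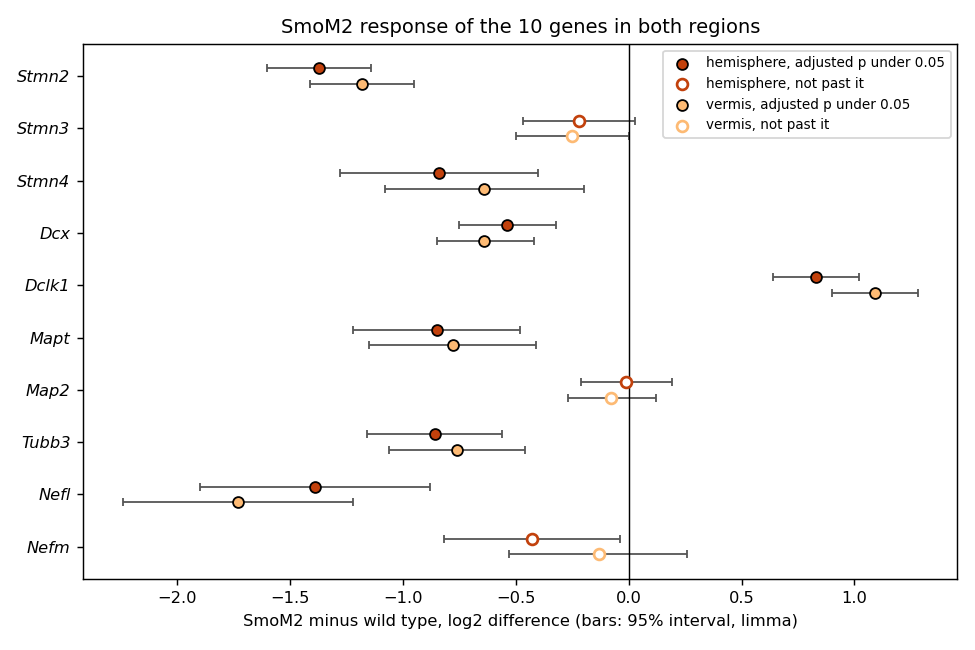
SmoM2 minus wild type log2 difference of the brightest probe set of each of the 10 genes (horizontal axis) in the hemisphere and the vermis, with its 95% interval from limma; filled points passed at an adjusted p under 0.05. The 6 genes that fell lie between -1.73 and -0.54, Dclk1 lies at 0.83 and 1.09, and the Map2 intervals include 0 in both regions.

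None of the 10 genes passed between hemisphere and vermis, in wild type (0.187% of all genes passed) or in SmoM2 (0.0605%), nor did any of their 30 probe sets (0.0533% and 0.0333% of all probe sets). In limma, 1 of the 10 had an unadjusted p under 0.05 in wild type, where 6.32% of all genes did, and 0 in SmoM2, where 3.63% did. In wild type 3 of the 10 had arrays that did not overlap between regions (8.77% of all genes), namely Stmn2, Dclk1 and Map2, and in SmoM2 2 of the 10 (10.7%), namely Dclk1 and Map2. Dclk1 was the gene with the unadjusted p under 0.05. It was higher in wild type hemisphere than in wild type vermis by 0.37 ± 0.09 (SE), with an unadjusted p of 0.000988 and an adjusted p of 0.165. With genotype and replicate number as a random replicate block, the same Dclk1 difference passed (adjusted p = 0.0268). It passed in 2 of 22 alternative fits, over which it ran from 0.10 to 0.41 with an adjusted p of up to 0.972. Over the 9 Dclk1 probe sets this difference ran from -0.22 to 0.40, and none passed. In SmoM2 cells the region difference of Dclk1 was 0.11 ± 0.09 (adjusted p = 1).

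The SmoM2 response did not differ detectably between regions for any of the 10 genes. In limma no gene of the 18193 passed for this difference (0%), 3.10% had an unadjusted p under 0.05, and none of the 10 did. The difference of responses, hemisphere minus vermis, was -0.26 ± 0.13 (SE) for Dclk1 (unadjusted p = 0.0588), 0.34 ± 0.34 for Nefl, -0.30 ± 0.26 for Nefm and -0.19 ± 0.15 for Stmn2.

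Of 12 alpha and beta tubulins measured from a list of 16, 4 fell and 1 rose in SmoM2 hemisphere cells. In the vermis 3 fell and 1 rose. Beside these and the following counts, 14.8% of all genes passed in the hemisphere and 17.0% in the vermis. Their median difference was -0.32 in the hemisphere and -0.25 in the vermis, beside -0.05 and -0.06 over all genes. Besides Tubb3, Tubb2a fell by 0.62 in the hemisphere and by 0.55 in the vermis, and Tuba4a by 0.40 and 0.74. Tubb6, a broadly expressed beta tubulin, rose by 0.40 in the hemisphere and by 0.44 in the vermis. Probes of tubulin genes may be shared between near-identical copies. Of these tubulins, Tubb3 in both regions, Tubb2a in the hemisphere and Tuba4a in the vermis passed in all 12 fits that each left out 1 array. Tubb2a passed in 9 of 12 in the vermis (lost without wild type vermis array 3 or SmoM2 vermis array 2 or 3, highest adjusted p 0.0759), and Tuba4a in 4 of 12 in the hemisphere (highest 0.168, without SmoM2 hemisphere array 3). Tubb6 passed in 7 of 12 in the hemisphere (lost without wild type hemisphere array 1 or 2 or any SmoM2 hemisphere array, highest 0.12) and in 8 of 12 in the vermis (lost without array 1 or 3 of wild type or SmoM2 vermis, highest 0.0695), and where it was lost 0 tubulins rose. Only 2 tubulins fell in hemisphere cells without any 1 of wild type hemisphere arrays 2 and 3, wild type vermis array 3, SmoM2 hemisphere arrays 1 and 3 and SmoM2 vermis arrays 1 and 2. Leaving out wild type hemisphere array 3 gave 5 that fell in vermis cells.

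Of 17 structural microtubule-associated proteins measured, 6 fell and 2 rose in hemisphere cells, whereas in vermis cells 4 fell and 1 rose. Their median difference was -0.01 in the hemisphere and -0.22 in the vermis. Beside Mapt, Tppp, which promotes tubulin polymerisation and is abundant in oligodendrocytes, fell by 0.83 and 1.24. Map7, which recruits kinesin, fell by 0.65 and 0.85, and Map6d1, a relative of the cold-stability factor Map6, by 0.45 and 0.79. In the vermis these 3 calls passed in all 12 fits that each left out 1 array. In the hemisphere Tppp passed in 9 of 12 (lost without wild type hemisphere array 2 or SmoM2 hemisphere array 1 or 2), Map7 in 10 (lost without wild type hemisphere array 2 or SmoM2 hemisphere array 1) and Map6d1 in 2 (those without wild type hemisphere array 3 or SmoM2 hemisphere array 2). The highest adjusted p, without SmoM2 hemisphere array 1, was 0.102 for Tppp, 0.0744 for Map7 and 0.169 for Map6d1. Leaving out 1 array gave 1 to 5 that fell in hemisphere cells, so no such fit gave the reported 6. The number was 1 without SmoM2 hemisphere array 1 and 2 without wild type hemisphere array 2, and 1 rose without SmoM2 hemisphere array 1 or 3.

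Among 9 intermediate filament genes, Nes and Vim rose in both regions and Nefl fell in both. Nes, which encodes nestin, rose by 1.18 ± 0.14 (SE) in the hemisphere (adjusted p = 5.89e-05) and by 1.10 ± 0.14 in the vermis (0.000102). Vim, which encodes vimentin, rose by 0.79 ± 0.10 (0.000128) and by 0.90 ± 0.10 (3.45e-05). Counting all 9, 3 rose and 1 fell in hemisphere cells, whereas in vermis cells 2 rose and 1 fell. Without wild type hemisphere array 1 the number that fell in the hemisphere was 2. The neuronal filaments Nefh and Ina did not pass, with differences of -0.10 and -0.02 in the hemisphere and of -0.01 and -0.10 in the vermis, and Nefh lay below the arrays' lower quartile.

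**Figure D4:**
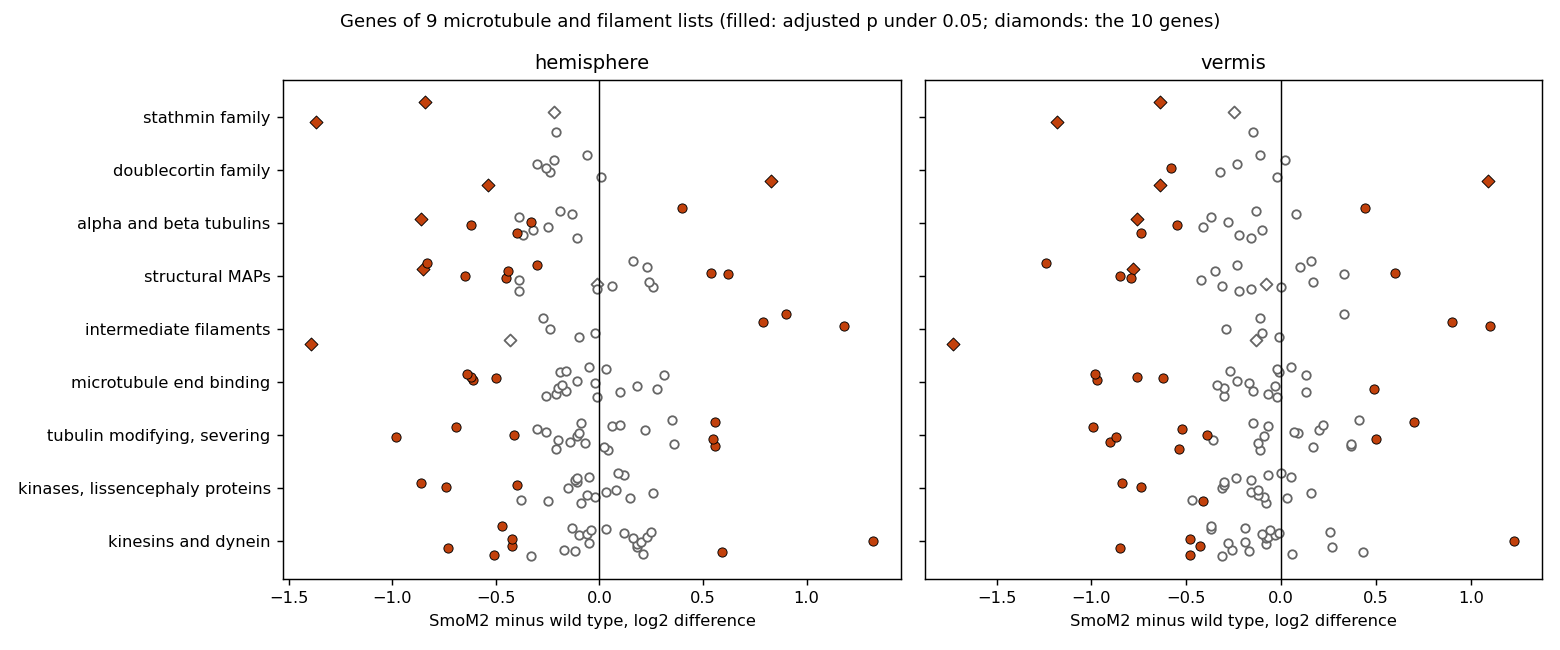
SmoM2 minus wild type log2 difference (horizontal axis) of the measured genes of 9 lists of microtubule and filament genes, in the hemisphere (left) and the vermis (right); filled points passed at an adjusted p under 0.05 over all genes, and diamonds are the 10 genes. Genes that passed lie on both sides of 0, and furthest to the left lie Nefl and Stmn2 in the hemisphere and Nefl and Tppp in the vermis.

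Of 20 proteins that act on the ends of microtubules, 4 fell and 0 rose in hemisphere cells, whereas in vermis cells 4 fell and 1 rose. Over all genes 7.18% fell and 7.62% rose in the first comparison, and 9.46% fell and 7.56% rose in the second. Nav2, a neuron navigator, fell by 0.64 in the hemisphere and by 0.98 in the vermis, Camsap3, which caps minus ends, by 0.61 and 0.97, and Apc, which binds plus ends, by 0.50 and 0.62. Its relative Apc2 fell by 0.62 and 0.76. Apc2 passed in 2 of 12 fits that each left out 1 array in the hemisphere (those without wild type hemisphere array 2 or wild type vermis array 2) and in 9 of 12 in the vermis (lost without wild type vermis array 1 or 3 or SmoM2 vermis array 3), with highest adjusted p 0.185 and 0.0754, and the other 3 genes in all 12 in each region. Without wild type hemisphere array 3 or SmoM2 hemisphere array 1, 1 gene rose in the hemisphere.

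Of 22 tubulin modifying and severing enzymes measured from a list of 25, 3 fell and 3 rose in hemisphere cells, whereas in vermis cells 6 fell and 2 rose. Vash2, a tubulin carboxypeptidase that removes the terminal tyrosine, fell by 0.98 in the hemisphere and by 0.87 in the vermis. Sirt2, a tubulin deacetylase that is also abundant in oligodendrocytes, fell by 0.69 and 0.99. Fign, which severs microtubules, rose by 0.56 and 0.70, and Ttll12, of the tubulin tyrosine ligase-like family, by 0.55 and 0.50. Vash2 and Sirt2 passed in all 12 fits that each left out 1 array in both regions, and Fign in all 12 in the vermis. Fign passed in 9 of 12 in the hemisphere (lost without wild type hemisphere array 3 or SmoM2 hemisphere array 1 or 2, highest adjusted p 0.118). Ttll12 passed in 9 of 12 in the hemisphere (lost without wild type hemisphere array 2 or SmoM2 hemisphere array 1 or 2, highest 0.0809) and in 8 of 12 in the vermis (lost without wild type vermis array 2 or 3 or SmoM2 vermis array 1 or 2, highest 0.122). In hemisphere cells 5 rose without wild type hemisphere array 1 and 1 without SmoM2 hemisphere array 1 or 2. In vermis cells 4 rose without wild type vermis array 1 and 1 without wild type vermis array 2 or 3 or SmoM2 vermis array 1 or 2, and 3 fell without SmoM2 vermis array 3.

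Of 19 kinases and lissencephaly proteins that act on these proteins, 3 fell and 0 rose in each region, a share close to that of all genes (14.8% passed in the hemisphere and 17.0% in the vermis). Mapk8ip1, a scaffold of the JNK pathway, fell by 0.86 in the hemisphere and by 0.84 in the vermis, and Brsk2, a kinase of neuronal polarity, by 0.74 in both, each in all 12 fits that left out 1 array. The partner genes of Dcx in lissencephaly showed no call: Pafah1b1, which encodes Lis1, differed by -0.11 in the hemisphere (adjusted p = 0.469) and by -0.24 in the vermis (0.106).

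Of 24 axonal kinesin and dynein genes measured from a list of 25, 5 fell and 2 rose in hemisphere cells (14.8% of all genes passed), whereas in vermis cells 4 fell and 1 rose, a share near the 17.0% of all genes. Kif26b, a kinesin that is thought not to move along microtubules, rose by 1.32 ± 0.19 (SE) in the hemisphere (adjusted p = 0.000252) and by 1.23 ± 0.19 in the vermis (0.000405). Kif5a, a neuronal heavy chain of conventional kinesin that carries neurofilaments, fell by 0.73 in the hemisphere and by 0.85 in the vermis. Kif1b fell by 0.51 and 0.48 and Klc1, a kinesin light chain, by 0.42 and 0.48. Kif26b, Kif5a and Kif1b passed in all 12 fits that each left out 1 array in both regions, and Klc1 in 9 of 12 in the hemisphere (lost without wild type hemisphere array 3 or SmoM2 hemisphere array 1 or 3, highest adjusted p 0.105). In the hemisphere 3 fell without wild type hemisphere array 3 or SmoM2 hemisphere array 1, and 1 rose without wild type hemisphere array 3 or SmoM2 hemisphere array 3. In the vermis 2 rose without wild type hemisphere array 1 or 3 or wild type vermis array 1.

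Of the whole doublecortin family of 8, 1 rose and 1 fell in hemisphere cells, whereas in vermis cells 1 rose and 2 fell. The third was Dcdc2a, a ciliary and migration gene, which fell by 0.58 in the vermis (adjusted p = 0.049) and passed in 3 of 12 fits that each left out 1 array (those without wild type hemisphere array 1 or 3 or wild type vermis array 1, highest adjusted p otherwise 0.197). Dclk2, the closest relative of Dclk1 on the array, differed by 0.01 in the hemisphere (adjusted p = 0.959) and by -0.02 in the vermis (0.92). Without wild type hemisphere array 1, 2 members fell in the hemisphere.

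Marker genes of several cell types moved with the same groups. Atoh1, the defining factor of granule cell progenitors, was above the arrays' upper quartile of 6.9 to 7.1 in every group, at means of 8.16 in wild type and 8.98 in SmoM2 hemisphere, and of 7.85 in wild type and 8.71 in SmoM2 vermis. Gli1, a direct target of hedgehog signalling, rose from a mean of 7.13 to 8.81 in the hemisphere and from 7.15 to 8.66 in the vermis. Over the whole list of 12 granule cell progenitor markers, 4 rose and 2 fell in SmoM2 hemisphere, and 4 rose and 1 fell in SmoM2 vermis. Atoh1, Gli1, Gli2 and Ccnd1 rose in both regions, Pax6 fell by 0.55 and 0.56, and Barhl1 fell by 0.97 in the hemisphere (adjusted p = 0.0302) and differed by -0.79 in the vermis (0.0621). The number that fell was 1 in the hemisphere without wild type array 3 or any SmoM2 array of that region, and in vermis cells 2 fell without wild type hemisphere array 1 or 3 or wild type vermis array 1. Of 11 granule neuron markers measured, 5 were lower in SmoM2 hemisphere and 6 in SmoM2 vermis, and 0 rose. Their mean level ranged from 8.27 to 8.41 in wild type hemisphere and from 8.38 to 8.44 in wild type vermis, and in SmoM2 cells from 7.67 to 7.79 (hemisphere) and from 7.69 to 7.75 (vermis). Among them Neurod1 stood at means of 12.98, 13.01, 12.13 and 12.19 in the same order of groups. Gabra6, a marker of mature granule neurons, stood at 2.96 to 3.23 in the 4 groups, below the arrays' lower quartile.

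Markers of other cell types did not all move one way. All 7 oligodendrocyte markers measured fell in both regions, and their mean level ranged from 9.09 to 9.16, 9.44 to 9.97, 7.44 to 8.10 and 7.72 to 8.26 in the same order of groups. Of 7 GABAergic interneuron markers, 4 were lower in SmoM2 hemisphere and 6 in SmoM2 vermis, 1 rose in each, and the mean level ranged from 6.50 to 6.72, 6.74 to 6.94, 5.91 to 6.28 and 5.65 to 6.06 in the same order of groups. In hemisphere cells 2 fell without wild type hemisphere array 2 or SmoM2 hemisphere array 1 or 3, and 0 rose in the vermis without wild type vermis array 1 or 3 or any SmoM2 vermis array. Of 7 microglia markers, 6 were lower in SmoM2 hemisphere and 5 in SmoM2 vermis (3 without array 1 or 3 of wild type vermis or array 2 or 3 of SmoM2 vermis), with mean levels from 6.63 to 6.83, 6.53 to 6.64, 5.47 to 6.02 and 5.70 to 6.17. Of 7 markers of unipolar brush cells and cerebellar nuclei, 2 were lower in SmoM2 hemisphere and 3 in SmoM2 vermis, with mean levels from 4.90 to 5.11, 5.06 to 5.18, 3.96 to 4.22 and 4.08 to 4.19. Of 8 Purkinje cell markers measured, 1 rose and 0 fell in SmoM2 hemisphere and 1 rose and 1 fell in SmoM2 vermis, and their mean levels, from 4.48 to 4.58, 4.82 to 5.00, 4.31 to 4.73 and 4.51 to 4.70, overlapped between genotypes in the hemisphere. Leaving out 1 array gave up to 2 that fell in the hemisphere (without SmoM2 hemisphere array 2) and up to 3 in the vermis (without SmoM2 hemisphere array 1 or 2). Of 8 astroglial markers, 2 rose and 3 fell in SmoM2 hemisphere, 2 rose and 2 fell in SmoM2 vermis, and the mean levels overlapped between genotypes in both regions (8.53 to 8.99 in wild type and 8.26 to 8.77 in SmoM2 hemisphere). The astroglial number that fell was 0 without SmoM2 hemisphere array 1, or in the vermis without wild type vermis array 3 or SmoM2 vermis array 2. Of 7 endothelial markers, 0 passed in the hemisphere in limma (1 had an unadjusted p under 0.05) and 2 fell in the vermis, a number that ranged from 0 (without wild type vermis array 2 or 3, SmoM2 vermis array 1 or 2 or any SmoM2 hemisphere array) to 5 (without wild type hemisphere array 3). The log2 values have no 0, so no marker could be called absent. The part of granule neurons, oligodendrocytes or other cells in the results for the 10 genes was not tested.

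The arrays were alike in distribution, with medians from 4.81 to 4.87, and correlated at 0.988 to 0.996 within groups and at 0.978 to 0.989 between genotypes. The signal of Actb at its 3′ end minus that at its 5′ end, which follows RNA integrity, came to 0.46 to 0.79 in wild type hemisphere and 0.87 to 0.90 in wild type vermis, 0.90 to 1.11 in SmoM2 hemisphere and 0.89 to 1.07 in SmoM2 vermis, and its part in the results was not tested. The signal of the added dap transcript was 7.77 to 9.5 in wild type hemisphere and 9.77 to 10.41 in wild type vermis. It was 10.01 to 11.0 in SmoM2 hemisphere and 10.35 to 10.52 in SmoM2 vermis. The genotypes thus did not overlap in dap in the hemisphere, and its part in the results was not tested. Wild type hemisphere array 3 had the lowest Actb value, the lowest dap signal (7.77) and the lowest signal of the added bioB control (6.98). Without it, Mapt fell by 0.60 in the hemisphere (adjusted p = 0.00811), Tubb3 by 0.73 (0.00338), Stmn2 by 1.36, Dcx by 0.59 and Nefl by 1.29 (0.00713).

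The genes most like 3 of the 10 over the 12 arrays were found among 9096 genes above the median level, by Pearson's r. The points are 12 arrays that fall into 2 genotypes, so r is large for genes with a like gap between genotypes, and it is given as a description. Closest to Stmn2 were Igfbp5 (0.993), Igfbpl1 (0.991), Ppp1r14c (0.990), Ppm1h (0.989) and Ppp2r2b (0.987). Igfbp5, which encodes a binding protein of insulin-like growth factors, fell by 2.84 in the hemisphere, and in the vermis it fell by 2.70. Closest to Dcx were Lrp12 (0.985), Slc44a1 (0.984), Fam107b (0.980), Unc5c (0.978) and Pik3r3 (0.974). Unc5c, a netrin receptor also on the granule neuron list, fell by 1.70 in the hemisphere, and in the vermis it fell by 1.83. Closest to Nefl were Kcna1 (0.979), Thtpa (0.977), Prickle2 (0.977), Fbxo7 (0.974) and Dpysl3 (0.974). Kcna1, an axonal potassium channel, fell by 1.64 and 1.79, and Dpysl3, a tubulin-binding protein of growth cones, by 0.92 and 1.00.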

How the data were processed

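The deposited values are on a log2 scale, 1 for each probe set and array. Per the submitters' processing notes the authors used RMA in Partek, a method that corrects background, applies quantile normalization and condenses the probes of a set, and that compresses low values. The sources used here give no version. Of 45101 probe sets, 64 were controls. Controls left out, 34945 carried 1 symbol in the platform annotation. With controls included, 932 carried several symbols and 9211 none. The brightest probe set stood for each of 18193 genes.

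Groups came from the sample titles. Differences were fitted with limma 3.58.1 in R 4.3.3 (lmFit, eBayes, 4 group means, 12 arrays), two-sided, with Benjamini-Hochberg adjustment over all genes of each of 5 contrasts, and a second fit covered 45037 probe sets. The code was tested on simulated data. Precision is limited by there being 3 arrays in a group, and the median SD within groups was 0.13. The 10 genes and the lists were chosen with earlier results of these data known. Named list genes are up to 4 per list with the largest mean difference among those passing in both regions, and the 5 genes most correlated with Stmn2, Dcx and Nefl; genes named outside this rule were chosen after their values were seen. Deviations from the group mean correlated between hemisphere and vermis arrays of 1 genotype and number (r from 0.14 to 0.53 in 6 pairs). These r ran from 0.34 to 0.53 in wild type and from 0.14 to 0.27 in SmoM2. Hemisphere and vermis arrays of 1 genotype and unequal number gave -0.4 to -0.11 in wild type and -0.17 to 0.02 in SmoM2. Between genotypes, arrays of equal number gave -0.22 to 0.28 in 12 pairs, a range that includes the SmoM2 values for equal numbers. A shared deviation of both regions by number was thus clearer in wild type than in SmoM2. Alternatives were the mean of probe sets, median centring, repeated quantile normalization, a filter on dim genes, array weights, other moderation, replicate blocks, fewer groups and leaving out each array.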

Additional observations from a re-analysis of the deposited data

How the results depend on the processing

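Across the alternatives, the number of the 10 genes that passed between genotypes stayed within 1.5 times the reported 7 in each region, and no call reversed. Leaving out 1 array at a time gave 6 to 8 genes in the hemisphere and 6 to 7 in the vermis, 11 to 17 and 12 to 16 of the 30 probe sets, and 0 to 0 for both region contrasts and for the difference of responses. Between wild type regions, 1 gene (Dclk1, 0.37) passed with trended and robust moderation (adjusted p = 0.0276) and 1 with genotype and replicate number as a random replicate block (0.0268), where 0 was reported; over all probe sets 1 passed with trended and robust moderation. The random replicate block, with a consensus correlation of 0.359, changed no other call of the 10 genes. Replicate number as a fixed block moved the Nefm call in the hemisphere (-0.43, adjusted p = 0.0398). Between genotypes, deviations of arrays with equal numbers correlated at -0.22 to 0.28. Stmn4 lost its call without moderation (0.072 in the hemisphere, 0.132 in the vermis), and in the vermis also with median centring (0.0523), with only the groups compared (0.0555) and when adjusted over all probe sets (0.0629). Taking the mean of all probe sets, Dcx lost its hemisphere call (0.062). The same choice, added for the pairs of genes after seeing the data, ended the call for Stmn3 against Stmn4 (0.44, adjusted p = 0.05). The cause was not tested for any of these changes. The other 5 pairs of genes kept their calls with that choice and without any 1 array. With that choice, however, the response of Dcx minus that of Dclk1 was -0.84, where -1.55 was reported. With the mean of its probe sets Dclk1 rose by 0.41 in the hemisphere and by 0.44 in the vermis, where 0.83 and 1.09 were reported, and still passed. With the numbered arrays of both regions kept together as a replicate block, also added after seeing the data, no pair could pass (smallest exact p 0.1). Low signal limits what can be said of Nefh, the dim Dclk1 sets and other genes near the lower quartile.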

Other observations

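Some genes outside the naming rule are given as values chosen after they were seen. Synm, an intermediate filament gene of progenitors and muscle, rose by 0.90 ± 0.15 (SE) in the hemisphere (adjusted p = 0.000832 in limma), and its difference in the vermis was 0.33 ± 0.15 (0.135). Ttll7, a tubulin polyglutamylase, fell by 0.90 ± 0.22 in the vermis (0.0146, lost without wild type vermis array 2 or SmoM2 vermis array 3), and its difference in the hemisphere was -0.14 ± 0.22 (0.693). For neither gene did the difference of responses pass. Map7d2 rose in both regions, by 0.54 in the hemisphere (0.011, lost without SmoM2 hemisphere array 3) and by 0.60 in the vermis (0.00548), where its relative Map7 fell. Kif5c, a neuronal kinesin heavy chain like Kif5a, fell by 0.42 (0.00594) and 0.43 (0.00493), and the ubiquitous Kif5b differed by 0.18 (0.25) and 0.27 (0.0826).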
